A study of Mus musculus with 4 samples.

Results

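The genes described here are the microRNA and small nucleolar RNA (snoRNA) genes in an RNA-seq table of primary mouse neural stem/progenitor cells (NSCs). They were chosen by name, as every gene row starting with Mir and a digit, Mirlet7, Snora or Snord with a value above 0 in at least 1 sample. The rule found 34 of the 18169 rows of the table (18118 after identical rows are kept once). They were 10 microRNA genes, 17 H/ACA snoRNA genes (Snora), 3 C/D snoRNA genes (Snord) and 4 microRNA host transcripts (Mir99ahg, Mir143hg, Mir22hg and Mir17hg). The 30 genes other than host transcripts are called short genes below, since RefSeq gives them lengths of 72 to 184 nt. No Mirlet7 gene was among them. The value that met the rule most narrowly was that of Mir143hg, at 0.08 TPM in 1 sample (TPM is a share of each sample's transcripts, scaled by gene length). No row of the table was at 0 in all samples, so no gene with such a name stood just outside the rule.

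The cells came from the periventricular region of newborn C57BL/6 brains and were grown with epidermal growth factor and fibroblast growth factor 2. The study compared +/+ cells (2 samples) with Chd5-/- cells (2 samples), which lack the chromatin remodeler Chd5. Each culture was started from an individual pup, and each genotype has a replicate 1 and a replicate 2. The growth protocol gives postnatal day 1 for every culture, whereas the age entries read day 1 and day 2 for +/+ and day 3 and day 4 for Chd5-/-, so that by these entries age and genotype cannot be told apart. How the Chd5 allele was made is not stated in the labels. Libraries were stranded and made from mRNA with a kit that selects polyadenylated RNA, and no small RNA library was analysed here. With 2 samples per genotype, every p-value below measures only the spread between these samples. In such bulk samples, fewer cells of a type and less RNA per cell cannot be told apart.

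MicroRNAs are cut from longer primary transcripts by Drosha and Dgcr8 and then by Dicer1. The mature strand is loaded onto an Argonaute protein, and its seed, the bases at positions 2 to 8, pairs with target mRNAs. Most vertebrate snoRNAs lie in introns of host genes, many of which encode ribosomal proteins or translation factors, and are trimmed from the excised intron. H/ACA snoRNAs guide pseudouridylation and C/D snoRNAs guide 2′-O-methylation, mostly of ribosomal RNA. None of these mature RNAs normally carries a long poly(A) tail, so the values below describe reads of polyadenylated libraries assigned to these genes and not the amount of mature small RNA.

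The mature microRNAs below belong to the genes on which the genotype comparison and the highest values turned. They are given 5′ to 3′ as in RefSeq (GRCm38.p6), with the seed in capitals.
mmu-miR-7a-5p (Mir7-1, chr13:58392841-58392863, minus strand): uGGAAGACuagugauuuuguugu
mmu-miR-7a-1-3p (Mir7-1, chr13:58392800-58392821, minus strand): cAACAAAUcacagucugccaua
mmu-miR-6516-5p (Mir6516, chr11:117077370-117077391, plus strand): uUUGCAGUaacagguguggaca
mmu-miR-6516-3p (Mir6516, chr11:117077412-117077433, plus strand): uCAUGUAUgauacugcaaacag
mmu-miR-703 (Mir703, chr5:98475616-98475636, minus strand): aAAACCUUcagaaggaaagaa
mmu-miR-6390 (Mir6390, chr14:105623710-105623730, minus strand): gAAUUGAUcaggauguaacca
mmu-miR-6236 (Mir6236, chr9:110281353-110281371, plus strand): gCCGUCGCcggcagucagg
No seed was shared between any of the 10 microRNA genes. The seed of mmu-miR-7a-5p, a microRNA of the conserved miR-7 family, was shared with 1 other mature name in the RefSeq table, mmu-miR-7b-5p, whose gene has no row here.

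Of the snoRNAs, the following are the 3 H/ACA genes whose genotypes did not overlap, and a C/D gene for contrast. They are transcripts of GENCODE M21 (GRCm38), given 5′ to 3′, and the capitals mark ACA near the 3′ end or, in the C/D gene, TGATGA of the C box and CTGA of the D box.
Snora43 (chr2:26637847-26637985, minus strand): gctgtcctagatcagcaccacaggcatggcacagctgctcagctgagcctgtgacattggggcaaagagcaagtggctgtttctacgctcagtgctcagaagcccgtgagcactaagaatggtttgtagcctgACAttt
Snora64 (chr17:24720772-24720905, plus strand): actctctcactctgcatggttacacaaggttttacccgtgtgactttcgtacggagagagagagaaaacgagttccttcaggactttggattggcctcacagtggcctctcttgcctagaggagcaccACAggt
Snora81 (chr16:23110756-23110933, plus strand): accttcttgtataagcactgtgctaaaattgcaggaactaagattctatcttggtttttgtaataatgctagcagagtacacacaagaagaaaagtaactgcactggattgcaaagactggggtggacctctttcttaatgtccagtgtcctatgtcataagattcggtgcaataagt
Snord15a (chr7:99482785-99482932, minus strand): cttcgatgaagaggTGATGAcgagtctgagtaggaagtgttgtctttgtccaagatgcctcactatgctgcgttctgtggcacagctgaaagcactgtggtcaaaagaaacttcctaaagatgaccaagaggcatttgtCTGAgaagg
ACA stood within the last 15 bases of 16 of the 17 H/ACA genes (94.1%), against 40 of 42 annotated Snora genes (95.2%) and 50.8% of all 1507 annotated snoRNA transcripts. The gene without it was Snora81. TGATGA followed by CTGA was found in 2 of the 3 C/D genes, in 74 of 98 annotated Snord genes (75.5%) and in 24.0% of all snoRNA transcripts. Only the transcribed strand was searched, and such a match describes letters alone.

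Values of the short genes ran from a highly abundant microRNA gene to many that were listed at 0. Mir703, the name of a microRNA gene on chr5:98475556-98475664 (minus strand), reached 19798.89 and 17171.55 TPM in +/+ NSCs against 20320.47 and 17083.42 TPM in Chd5-/- NSCs. It held 1.71% to 2.03% of all TPM and ranked between 3 and 8 of all rows in each sample. The other 29 short genes together held 0.0919% and 0.0865% of TPM in +/+ against 0.116% and 0.117% in Chd5-/- NSCs.

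Most short genes were listed at 0 somewhere. Of the 30, 24 (80.0%) were listed at 0 in at least 1 sample, 10 were above 0 in 1 sample only, 8 in 2 samples, 6 in 3 samples and 6 in all 4. The 6 were Mir703, Mir6390, Snora28, Snora64, Snora34 and Snord88a. The number of short genes above 0 was 17 and 14 in +/+ against 19 and 18 in Chd5-/- NSCs. The whole table ran the same way, with 1856 and 2427 rows listed at 0 in +/+ against 1430 and 1765 in Chd5-/-. Among the 27 short genes averaging 1 TPM or more, 21 (77.8%) were listed at 0 in a sample, where 0.836% of all rows with that mean were. Other rows whose longest annotated transcript is under 500 nt were listed at 0 in 4 of 37 cases (10.8%), and the 19 host genes of the short genes in none.

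**Figure D1:**
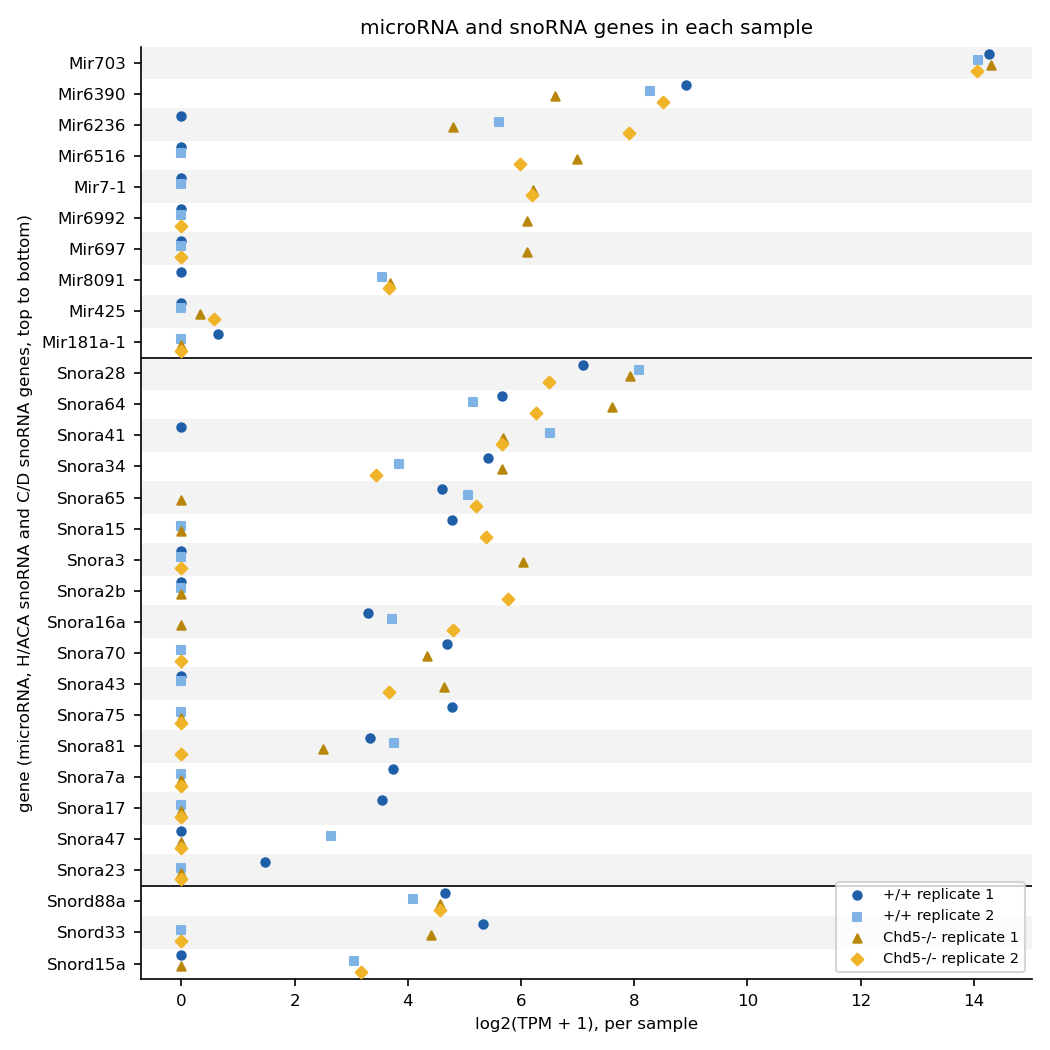
Values of the 30 short genes in each of the 4 samples, as log2(TPM + 1) on the horizontal axis, with 1 line per gene and 1 marker per sample. Of these genes, 24 have at least 1 marker at 0, and Mir703 stands alone, with its lowest value at 17083.42 TPM.

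The values of the short genes were found to be graded in steps. TPM divides by gene length and by a total of the sample, so a common divisor of a gene's values can show only after the sample totals are taken out. A factor for each sample relative to Chd5-/- replicate 1 was estimated from ratios of the other low rows of the table, and came to 0.6423 for +/+ replicate 1, 0.8975 for +/+ replicate 2 and 0.9855 for Chd5-/- replicate 2. After division by these factors, the values of 17 of the 19 short genes with at least 2 values above 0, all of them at least 1 TPM, stood in whole-number ratios, within 0.05 of a whole number. The lower values of Mir425 did so too. The same held for 72 of 11411 other rows (0.631%) and for 13 of 40 other rows that were listed at 0 in a sample (32.5%). The common divisor of a gene is called its step here. TPM does not record whether 1 step is 1 read.

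The step fell with gene length in microRNA and snoRNA genes alike, apart from 3 genes. It was 73.1 TPM for Mir7-1 (108 nt), 62.8 TPM for Mir6516 (110 nt), 38.7 TPM for Snora64 (117 nt), 19.3 TPM for Mir6390 (129 nt), 8.16 TPM for Snord15a (148 nt) and 4.69 TPM for Snora81 (164 nt). Several pairs of genes of equal length had values equal or in simple ratio within a sample, without any factor. Mir697 and Mir6992, both of 109 nt and on different chromosomes, each stood at 67.73 TPM in Chd5-/- replicate 1 and at 0 in the other samples. Snora15 and Snora75, both of 116 nt, each stood at 26.55 TPM in +/+ replicate 1. In Chd5-/- replicate 1, Mir8091 stood at 11.90 TPM and Snora43, also of 139 nt, at 23.80 TPM, 1 and 2 steps. The 3 genes apart were Snora34, with a step of 4.99 TPM at 118 nt where Snora65 of the same length had 36.3 TPM, and the shorter Snord33 and Mir425, with steps of 20.3 TPM at 82 nt and 0.257 TPM at 85 nt.

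**Figure D2:**
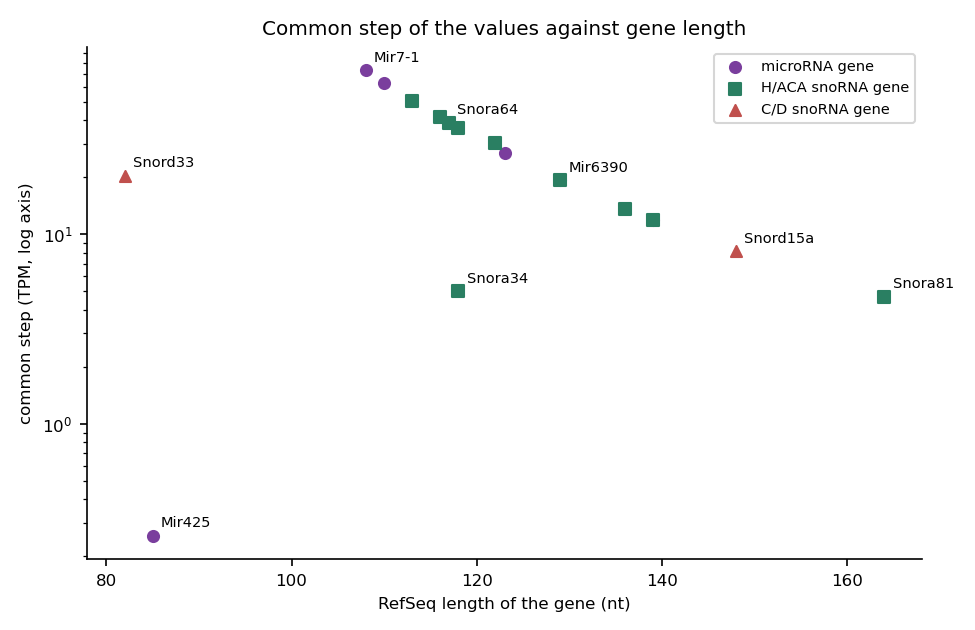
Step in TPM (vertical log axis) against RefSeq length in nt for the 17 genes with values in whole-number ratios and Mir425, marked by class. From 108 to 164 nt the steps fall from 73.1 to 4.69 TPM along a common curve, with Snora34 below it, while Snord33 (82 nt) and Mir425 (85 nt) lie apart at the short end.

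Counted in steps, most of these values were small, in part by construction. The step was based on the gene's smallest value above 0, divided by the smallest number that left all values in whole-number ratios. With only 2 values above 0, that number was always 1. The smallest value of most genes was therefore 1 step by definition, and 2 equal values, as in Mir7-1, were 1 step each. Among the 16 genes of 100 to 190 nt with whole-number ratios, 46 values were above 0, of which 22 were 1 step, 13 were 2 or 3 steps and 11 were 5 or more. The 16 genes added to 69 and 43 steps in +/+ against 38 and 45 steps in Chd5-/- NSCs. Without Mir6390, which alone gave 39, 18, 5 and 19 steps, the sums were 30 and 25 in +/+ and 33 and 26 in Chd5-/-, and the genotypes overlapped. Without Snora34 as well, whose step is off the common curve, the sums were 17 and 22 in +/+ and 23 and 24 in Chd5-/-, without overlap. Steps have the sample totals taken out, so these sums do not allow for unequal totals between samples. The last set also holds Mir7-1, Mir6516 and Snora43, which were above 0 in Chd5-/- samples only. No test was made of these sums, and no genotype difference is read from them. The largest distance from a whole number was 0.0325, in Mir6390. The factor of +/+ replicate 1 rested on 26 rows at the most frequent ratio against 25 at the next, the factor of +/+ replicate 2 on 29 against 24, and that of Chd5-/- replicate 2 on 40 against 29, so the first is the least certain.

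**Figure D3:**
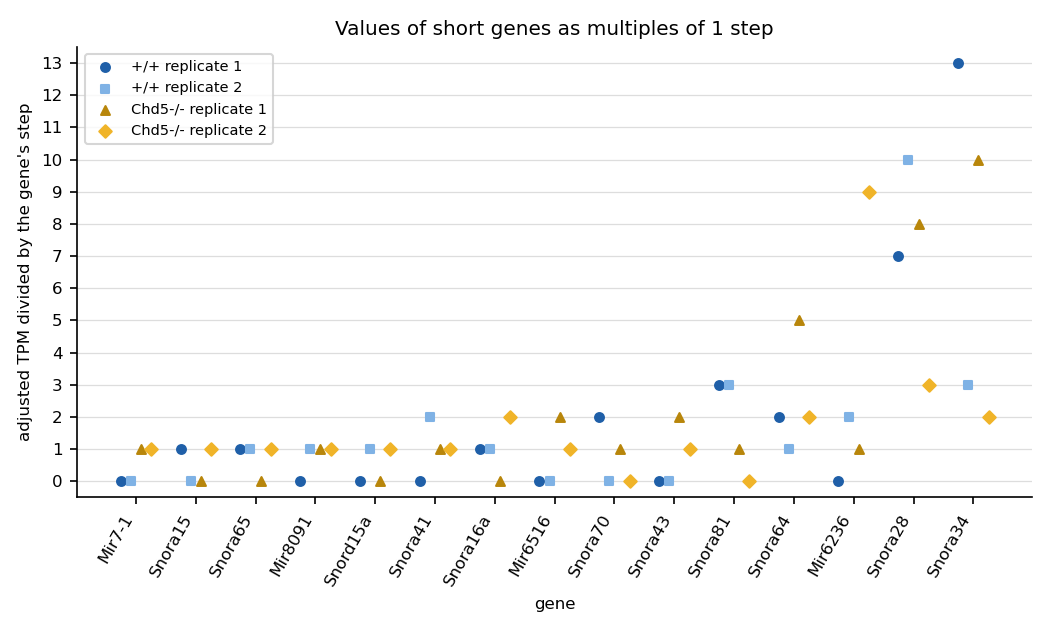
TPM divided by the sample factor and by the gene's own step (vertical axis, no unit) for the 15 genes of 100 to 190 nt with whole-number ratios other than Mir6390, with 1 marker per sample. All markers sit within 0.0180 of a horizontal whole-number line, and those of Mir7-1 are at 0, 0, 1 and 1.

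A limma fit of log2(TPM + 1) to genotype covered 12576 rows, those averaging 1 TPM or more, with Benjamini-Hochberg adjustment over all of them. The differences given are Chd5-/- minus +/+ on this scale. The test included 29 of the 34 genes, and the 5 left out for low values were Mir181a-1, Mir425, Snora23, Mir143hg and Mir17hg. By adjusted p, 2 of the 29 (Mir7-1 and Mir6516) passed 0.05, where 0.0557% of all rows passed, and 0 passed without +/+ replicate 1 or without +/+ replicate 2. At an unadjusted p under 0.05, 4 genes were higher (13.8%), where 21.9% of all rows were, and 1 was lower (3.45%), where 2.27% were. Mir7-1, Mir6516 and Snora43, 3 of the 4, were listed at 0 in both +/+ samples and entered both the set and the test through their Chd5-/- values. Their place in these counts is therefore a description that supports no genotype difference, and no test of any of them on its own is given below. The Chd5-/- values lay above both +/+ values in 5 of the 29 genes (17.2%), where 46.3% of all rows did, and below them in 2, where 13.0% did. The 5 include Mir7-1, Mir6516 and Snora43. They also include Snora64 and Mir8091, in each of which a +/+ and a Chd5-/- sample were equal in steps, though steps do not allow for unequal sample totals. The differences were positive in 15 genes and negative in 14. Their median was 0.015, while the median over all rows tested was 0.34. With median-of-ratios scaling these medians were -0.33 and -0.032, with quantile normalization -0.29 and -0.054, and once GC and length trends were taken out -0.31 and -0.029.

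Mir7-1, which encodes miR-7a, lies in an intron of Hnrnpk on chr13:58392779-58392886 (minus strand). It was listed at 0 in both +/+ samples and reached 73.15 and 72.06 TPM in Chd5-/- NSCs. Each Chd5-/- value was 1 step, and along the common curve the size of 1 step goes with gene length. The size and closeness of the values are therefore no measure of strong or steady expression. A fitted difference against values listed at 0 depends on the pseudocount and is not given as a number. Hnrnpk, an RNA-binding protein gene, stood at 907.07 and 833.05 TPM in +/+ and at 684.79 and 778.48 TPM in Chd5-/- NSCs, with a difference of -0.25 ± 0.24 (SE, n = 2 per genotype; adjusted p = 0.546 by limma). The host was thus slightly lower in both Chd5-/- samples while the microRNA gene was above 0 only there.

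Mir6516 lies in an exon of the noncoding host Snhg20 (2810008D09Rik in the table) on chr11:117077348-117077457 (plus strand). Both +/+ samples were listed at 0, and the Chd5-/- samples held 125.66 and 61.90 TPM, which is 2 steps and 1 step. The host stood at 5.46 and 3.41 TPM in +/+ and at 9.17 and 5.29 TPM in Chd5-/-, so the genotypes of the host overlapped. Mir6516 was the only one of 19 genes tested beside a same-strand host whose mean TPM was above that of its host. Of its 110 nt, 88 are identical to an annotated small Cajal body RNA gene (Gm26083), so reads there could be assigned to more than 1 gene.

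Snora43, an H/ACA snoRNA gene within the span of Snhg7, was listed at 0 in both +/+ samples and stood at 23.80 and 11.72 TPM, or 2 steps and 1 step, in the Chd5-/- samples. Snora17, a neighbour in the same span, held 10.64 TPM in +/+ replicate 1 and was listed at 0 elsewhere. Snhg7 itself, a noncoding snoRNA host gene whose strand was not compared, stood at 5.68 and 3.05 TPM in +/+ and at 9.18 and 10.22 TPM in Chd5-/- NSCs, without overlap.

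Mir7-1, Mir6516, Snora43 and Mir425 were the 4 short genes listed at 0 in both samples of 1 genotype and above 0 in both of the other, and in all 4 the Chd5-/- samples held the values. Mir425, in an exon of the noncoding gene 4833445I07Rik, stood at 0.26 and 0.50 TPM there. The opposite pattern, above 0 in both +/+ samples only, was seen in 0 short genes. Of the short genes above 0 in 1 sample only, that sample was +/+ in 6 and Chd5-/- in 4. Over all rows of any mean, identical rows kept once, 2.23% showed either pattern, against 13.3% of the short genes. Of those rows, 290 had the values in Chd5-/- and 114 in +/+. Among all rows averaging 1 TPM or more, 0.0716% showed either pattern (8 with values in Chd5-/- and 1 with values in +/+), and 3 of these 9 rows are the short genes named here other than Mir425. Because entry to the set rests on values above 0, these counts are given without a test.

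Snora64 lies in an exon of a retained-intron transcript of Rps2, which encodes a protein of the small ribosomal subunit, on chr17:24720789-24720905 (plus strand). Its values were 49.75 and 34.69 TPM in +/+ and 193.62 and 76.30 TPM in Chd5-/-, or 2, 1, 5 and 2 steps. Both Chd5-/- values were higher, with replicate 1 far above the rest. The difference was 1.53 ± 0.49 (unadjusted p = 0.0241, adjusted p = 0.161 by limma), and it was 0.86 without Chd5-/- replicate 1 and 0.61 once GC and length trends were taken out. Rps2 stood at 440.32 and 333.58 TPM in +/+ and at 715.06 and 854.41 TPM in Chd5-/-, a difference of 1.03 (unadjusted p = 0.0106, adjusted p = 0.129), and here snoRNA gene and host were both higher. All 134 nt of the Snora64 sequence in GENCODE are identical to that Rps2 transcript. Reads there could be assigned to either gene, so the differences of snoRNA gene and host are not separate observations.

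Snora81 lies in an exon of a retained-intron transcript of Eif4a2, which encodes a translation initiation helicase, on chr16:23110770-23110933 (plus strand). It stood at 9.03 and 12.59 TPM in +/+ (3 steps each) and at 4.69 TPM (1 step) and 0 in Chd5-/-, so both Chd5-/- values were lower. The difference was -2.29 ± 0.84 (unadjusted p = 0.0395, adjusted p = 0.188 by limma). It was -1.04 without Chd5-/- replicate 2 and -3.55 without Chd5-/- replicate 1, and the unadjusted p was 0.0719 with a pseudocount of 0.1 and 0.0663 with no minimum TPM. Eif4a2 stood at 497.27 and 468.38 TPM in +/+ and at 435.16 and 443.82 TPM in Chd5-/- NSCs, a difference of -0.13. Mir8091, within the span of Lcor, was the fifth gene without overlap on the higher side, at 0 and 10.66 TPM in +/+ and at 11.90 and 11.72 TPM in Chd5-/-. Its 3 values above 0 were 1 step each, and its unadjusted p was 0.150. The second gene without overlap on the lower side was the host transcript Mir99ahg, at 5.57 and 7.21 TPM in +/+ and at 4.99 and 5.08 TPM in Chd5-/-.

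After Mir703, Mir6390 and Mir6236 had the highest means among microRNA genes, and both differed widely between samples of the same genotype. Mir6390 (chr14:105623642-105623770, minus strand) stood at 483.58 and 311.22 TPM in +/+ and at 96.51 and 361.30 TPM in Chd5-/-. Chd5-/- replicate 1 was the lowest sample and the genotypes overlapped (difference -1.05 ± 0.65, adjusted p = 0.370 by limma). Mir6236 (chr9:110281287-110281409, plus strand) stood at 0 and 48.10 TPM in +/+ and at 26.85 and 238.06 TPM in Chd5-/-, or 0, 2, 1 and 9 steps. Its lowest and highest samples were 1 of each genotype, the genotypes overlapped, and the adjusted p was 0.333. Mir181a-1, a member of the miR-181 family, was above 0 in +/+ replicate 1 only, at 0.57 TPM.

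Mir703 differed from the other short genes in its large values in every sample, which are too many steps for a whole-number ratio to be seen at this tolerance. Its 109 nt are 98.2% identical over their whole length to an annotated transcript of Eef1a1, which encodes a translation elongation factor. Eef1a1 stood at 18885.53 and 15829.11 TPM in +/+ and at 16500.46 and 16976.76 TPM in Chd5-/- NSCs. The ratio of Mir703 to Eef1a1 was 1.05 and 1.08 in +/+ and 1.23 and 1.01 in Chd5-/-, so both were of similar level on a scale per length in every sample. The value of Mir703 is therefore uncertain as a measure of the microRNA gene, since reads of near-identical copies can be assigned to either. Its difference was 0.015 ± 0.43 (adjusted p = 0.986 by limma), and it turned to -0.40 with median-of-ratios scaling and to -0.22 when the 20 top rows were left out of the total. The gene Cfap299 (1700007G11Rik in the table), whose span holds Mir703 on the other strand, was at 0.13 TPM in +/+ replicate 2 and listed at 0 in the other samples.

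Among the H/ACA snoRNA genes, Snora28, in the span of the translation initiation factor gene Eif5, had the highest mean. It stood at 135.82 and 270.56 TPM in +/+ and at 241.63 and 89.27 TPM in Chd5-/-, or 7, 10, 8 and 3 steps, and the genotypes overlapped. Snora41, in an intron of the elongation factor gene Eef1b2, stood at 0 and 90.71 TPM in +/+ and at 50.63 and 49.88 TPM in Chd5-/-, or 0, 2, 1 and 1 steps. Snora34 and Snora2b both lie in Kansl2, which encodes a subunit of a histone acetyltransferase complex. Snora34 stood at 41.65, 13.40, 49.87 and 9.83 TPM in the order +/+ replicates 1 and 2 and Chd5-/- replicates 1 and 2, with replicate 1 high in both genotypes. Snora2b stood at 53.52 TPM in Chd5-/- replicate 2 and at 0 elsewhere, while Kansl2 ranged from 33.86 to 53.10 TPM. A stretch of 92 nt of Snora34 is identical to the annotated gene Mir1291, which has no row here.

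The C/D snoRNA genes did not separate the genotypes. Snord88a, in an exon of 2410002F23Rik, which has no row, stood at 24.31 and 16.09 TPM in +/+ and at 22.82 and 22.65 TPM in Chd5-/-, in no whole-number ratio. Snord33 stood at 39.21 TPM and 0 in +/+ and at 20.35 TPM and 0 in Chd5-/-, with replicate 1 above 0 in each genotype. By the host rule it lies in Gm45713, which has no row. It also lies in the ribosomal protein gene Rpl13a, named here after its values were seen, which stood at 422.45 and 288.05 TPM in +/+ and at 738.74 and 738.47 TPM in Chd5-/-. Snord15a stood at 0 and 7.32 TPM in +/+ and at 0 and 8.05 TPM in Chd5-/-, with replicate 2 at 1 step in each genotype.

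Host genes were compared with the genes inside them. A host was the same-strand GENCODE gene whose span holds the whole short gene, and 20 short genes had such a host in the table (19 hosts). By GENCODE, 13 short genes lay in an annotated exon of a same-strand gene, most of them in transcripts annotated as retained introns, 3 lay partly in an exon and 9 in an intron. A short gene in such an exon shares sequence with its host, so reads there could be assigned to either. Of the 19 hosts, 9 were higher and 5 lower without overlap, where 46.3% and 13.0% of all rows were. At an unadjusted p under 0.05, 6 were higher and 0 lower, where 21.9% and 2.27% of all rows were, and 0 passed after adjustment (limma, smallest adjusted p = 0.126). Their median difference was 0.46, against 0.34 over all rows tested, and 0.049 with median-of-ratios scaling, against -0.032 over all rows. All 6 ribosomal protein hosts (Rps2, Rps3, Rpl10, Rpl12, Rpl27a and Rpl32) were higher without overlap, with differences from 0.71 to 1.43 and a median of 0.95, and 5 of them passed an unadjusted p of 0.05. All 6 kept a positive difference under every alternative tried, but their median was 0.53 with median-of-ratios scaling and 0.46 once GC and length trends were taken out, with 1 past that p in each, and 0 passed it without +/+ replicate 2. Ribosomal protein genes as a group were examined by the study on these same samples, so these hosts are no independent evidence of direction.

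The short genes in the 6 ribosomal protein hosts were split, 3 with a positive and 3 with a negative difference and a median of -0.056. Snora3 (positive) and Snora7a (negative) were above 0 in 1 sample only, and that sample fixed their sign. Snora7a, in Rpl32, stood at 12.40 TPM (1 step) in +/+ replicate 1 and at 0 elsewhere, whereas Rpl32 stood at 733.72 and 427.89 TPM in +/+ and at 1368.87 and 1662.52 TPM in Chd5-/- NSCs (limma, unadjusted p = 0.00832). Snora65, in Rpl12, stood at 23.34 and 32.54 TPM in +/+ and at 0 and 35.79 TPM in Chd5-/-, or 1, 1, 0 and 1 steps. Snora70, in Rpl10, stood at 24.80 TPM and 0 in +/+ and at 19.30 TPM and 0 in Chd5-/-. Snora3, in Rpl27a, stood at 64.17 TPM in Chd5-/- replicate 1 and at 0 elsewhere. Each of the 6 hosts was well above its snoRNA gene, and none of these 4 snoRNA genes separated the genotypes.

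Over the 19 short genes tested that had a same-strand host, 11 had a difference of the same sign as the host. Among the 19, Mir7-1, Mir6516, Mir697, Mir6992, Snora2b, Snora3, Snora7a, Snora47 and Snora75 were above 0 in 1 genotype only. The sign of each was fixed by the samples that brought it into the set, so the count of 11 is a description only. The standard errors of the short genes ranged from 0.27 to 2.25 (median 1.52) on the log2(TPM + 1) scale, while those of their hosts ranged from 0.22 to 0.39 (median 0.28). The smallest standard error among the short genes was that of Mir7-1, whose samples were alike within each genotype, at 0 and at 1 step. The other hosts outside the ribosome were mixed. The 3 translation factor hosts (Eif4a2, Eif5 and Eef1b2) had a median difference of -0.13 and the remaining 10 a median of 0.25.

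**Figure D4:**
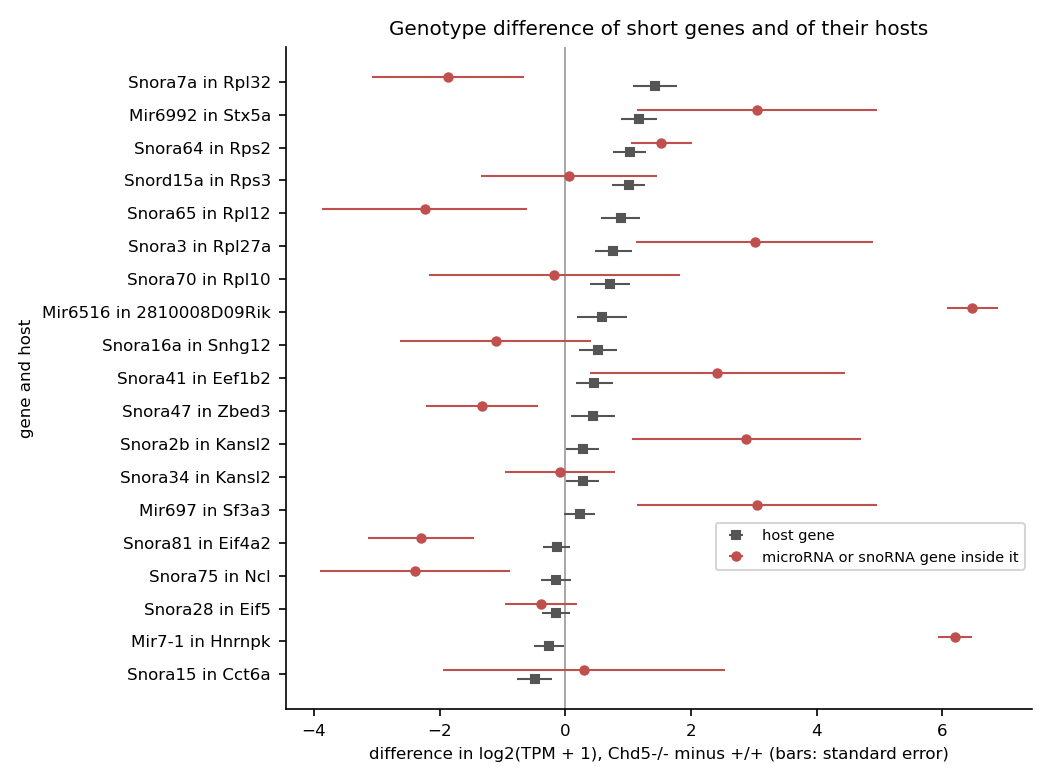
Difference in log2(TPM + 1), Chd5-/- minus +/+ (horizontal axis), for 19 short genes tested (circles) and for the host of each (squares), with bars of 1 standard error from limma and hosts ordered by their difference. Host differences lie between -0.49 and 1.43, while those of the short genes spread more widely, with mostly wider bars. The positions of Mir7-1 and Mir6516, at the right, rest on the pseudocount added to +/+ values of 0 and are no estimate of size.

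The remaining short genes held values in few samples. Snora15 (in Cct6a, a chaperonin subunit gene) stood at 26.55 TPM in +/+ replicate 1 and 40.72 TPM in Chd5-/- replicate 2, 1 step each. Snora16a (in Snhg12) stood at 8.77, 12.23, 0 and 26.89 TPM across the 4 samples, or 1, 1, 0 and 2 steps. Snora75 (in Ncl, which encodes nucleolin), Snora17 and Snora23 (in Ipo7) were above 0 in +/+ replicate 1 only, and Snora47 (in Zbed3) in +/+ replicate 2 only, with the highest of these at 26.55 TPM. Mir697 (in an intron of Sf3a3) and Mir6992 (in Stx5a) were above 0 in Chd5-/- replicate 1 only.

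Of the 4 microRNA host transcripts, which are long and spliced, Mir143hg was above 0 in Chd5-/- replicate 1 only, at 0.08 TPM. Mir22hg stood at 9.36 and 11.82 TPM in +/+ and at 20.98 and 3.75 TPM in Chd5-/- NSCs, so the Chd5-/- samples enclosed both +/+ values (difference -0.17 ± 0.74, adjusted p = 0.901 by limma). Mir17hg, the host of the miR-17 cluster, stood at 0.68 and 0.55 TPM in +/+ and at 1.28 and 0.31 TPM in Chd5-/-. None of Mir99ahg, Mir22hg and Mir17hg was listed at 0 in any sample or had values in whole-number ratios.

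The proteins that make and carry these RNAs were examined as 48 listed genes, of which 47 had a row and 46 were tested. At an unadjusted p under 0.05, 9 were higher and 1 was lower in Chd5-/- NSCs, and 0 passed after adjustment (limma, smallest adjusted p = 0.120). Without overlap between genotypes, 22 were higher and 8 lower, where 46.3% and 13.0% of all rows were. The median difference was 0.25, below the 0.34 of all rows tested, so the share of these genes that were higher (19.6%) stood near the background of 21.9%. This split and the background both changed with the scaling. With median-of-ratios scaling 4 were higher and 8 lower, where 11.1% and 12.0% of all rows were. Once GC and length trends were taken out, 1 was higher and 3 lower, where 5.43% and 6.27% of all rows were. The directions below are those of the unscaled values.

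In the core of the snoRNA particles, neither list held a gene past an unadjusted p of 0.05. The box C/D core had a median of -0.056, with Fbl, the methyltransferase, at 39.39 and 24.83 TPM in +/+ and 67.70 and 40.37 TPM in Chd5-/- (difference 0.72), and Nop58 at 108.36 and 100.72 against 94.53 and 46.67 TPM (difference -0.64). The box H/ACA core had a median of 0.054, with Dkc1, the pseudouridine synthase, at 41.27 and 37.09 TPM in +/+ and 40.85 and 25.85 TPM in Chd5-/- (difference -0.26). Of the 12 assembly factors, Pih1d1 was higher at the unadjusted threshold, with 5.48 and 2.85 TPM in +/+ against 18.30 and 16.20 TPM in Chd5-/- (difference 1.87 ± 0.35, adjusted p = 0.120 by limma). Ruvbl2, an AAA ATPase that works with Pih1d1, had a difference of 1.29, and Tcof1 of 1.00. Naf1, an H/ACA assembly factor, was lower at 38.01 and 28.72 TPM in Chd5-/- against 52.60 and 59.63 TPM in +/+ (difference -0.74, unadjusted p = 0.029).

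Among the 10 microRNA processing genes, 3 were higher at the unadjusted threshold, namely Drosha, the nuclear endonuclease (0.67), Srrt (0.91) and Tarbp2, a partner of Dicer1 (0.95). Drosha stood at 34.73 and 29.83 TPM in +/+ and at 56.57 and 47.28 TPM in Chd5-/-. Its partner Dgcr8 stood at 20.87 and 18.35 against 20.08 and 20.20 TPM, with overlap, and Dicer1 at 22.49 and 20.93 against 28.51 and 26.95 TPM (difference 0.34, unadjusted p = 0.193). Of 8 Argonaute and effector genes, Mov10 (1.30) and Tnrc6a (0.61) were higher, and Ago2, the slicing Argonaute, stood at 15.70 and 12.90 TPM in +/+ and 19.01 and 18.95 TPM in Chd5-/- (difference 0.39, unadjusted p = 0.177). Of the turnover genes, Zswim8, which acts in target-directed microRNA decay, was higher (1.47, unadjusted p = 0.011), Lin28a reached 0.06 TPM in 1 sample only, and Lin28b has no row here.

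**Figure D5:**
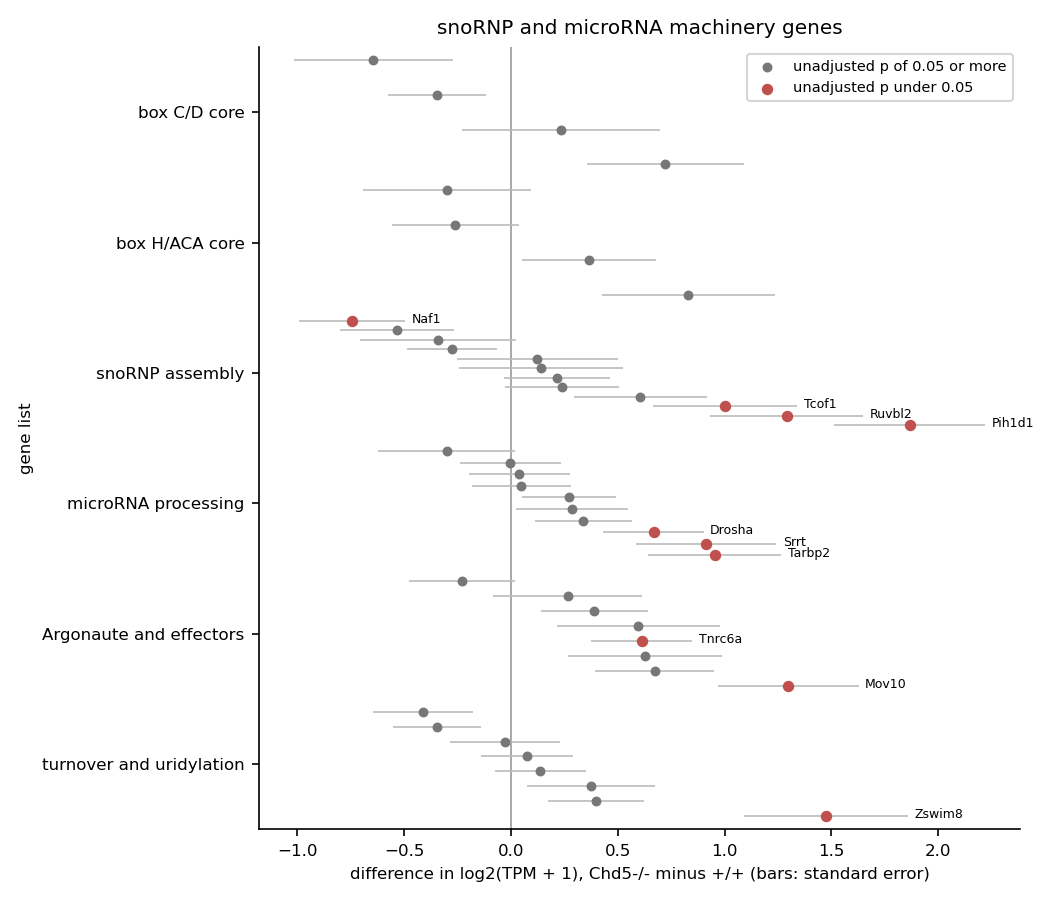
Difference in log2(TPM + 1), Chd5-/- minus +/+ (horizontal axis), of the 46 tested genes in 6 lists, with bars of 1 standard error and red points for an unadjusted p under 0.05. Of the 10 red points, 9 lie to the right of 0, and Naf1 lies to the left.

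The cultures expressed the defining markers of NSCs, with all 10 listed genes at a mean of at least 1 TPM. Their sums, led by Fabp7, were 9897 and 8245 TPM in +/+ and 4009 and 6968 TPM in Chd5-/- NSCs. The listed genes did not all run the same way. Fabp7, Slc1a3, Vim and Sox2 were lower in both Chd5-/- samples, Egfr was higher in both, and Nes, Pax6, Prom1, Hes5 and Sox9 overlapped. Astrocyte markers summed to 353 and 388 TPM in +/+ and to 98.8 and 579 TPM in Chd5-/-. Oligodendrocyte lineage markers (Mog has no row) summed to 567 and 628 TPM in +/+ and to 499.7 and 917 TPM in Chd5-/-. In both lists the Chd5-/- samples enclosed both +/+ values. Neuron markers (2 of 6 at a mean of at least 1 TPM) summed to 1.88 to 12.9 TPM. Mesenchymal markers (2 of 5 at that mean) summed to 12.2 TPM in Chd5-/- replicate 1 and to at most 0.13 TPM elsewhere, and endothelial and microglial markers stayed under 1 TPM. These sums are shares of RNA and give no cell proportions. Whether such marker differences bear on the values of the short genes was not tested. Chd5 itself, the targeted gene, stood at 0.39 and 0.37 TPM in +/+ and at 0.06 and 0.04 TPM in Chd5-/- samples, below the minimum for testing. Each column of the table sums to about the same total by construction, and the number of reads behind a value is not recorded.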

How the data were processed

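The authors deposited TPM values of 4 samples (2 per genotype) in 1 table, and the submitters' processing notes name Bowtie2 2.2.3, RSEM 1.2.20 and mm10. The gene annotation is not given in the sources used here. The deposited TPM values were used without rescaling, and all 4 columns were matched to samples by name. TPM keeps no depth, so no interval for counting error is given.

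Genotype differences in log2(TPM + 1) came from limma 3.58.1 (R 4.3.3; eBayes with trend, two-sided). In simulated data for the 12576 rows tested, all 100 changes of 4 and all 100 of 8 (log2) were called, with 12 false calls. The simulation used normal noise, without steps or values set to 0, so it does not describe calls among the short genes. Genes named were those past adjusted p of 0.05, the 10 of highest mean among microRNA and among snoRNA genes, those at 0 in 1 genotype, the 5 largest unadjusted changes each way without overlap, their hosts, and listed machinery genes. The members, lists and tests were chosen with earlier results of these data known, and the step analysis, the crossed block and the machinery alternatives were added after seeing the data.

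Steps used factors from ratios of other rows of 0.5 to 5 TPM, a tolerance of 0.05 and divisors up to 5. Lengths, positions and hosts came from RefSeq GRCm38.p6 and GENCODE M21, and shared sequence from blastn 2.17.0. Same-numbered samples showed a correlation of deviations of -0.152, so the numbers were not taken as pairs. Tables used Python 3.11.15 and pandas 2.3.3, and figures matplotlib 3.10.9.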

Additional observations from a re-analysis of the deposited data

How the results depend on the processing

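The number of genes past an adjusted p of 0.05 by limma (2, Mir7-1 and Mir6516) describes the fit only. These genes were listed at 0 in both +/+ samples and entered the test through their Chd5-/- values. No genotype difference is read from the counts that follow. The number was 1 with a pseudocount of 5, after quantile normalization and after detrending for GC and length, where Mir6516 lost its call. With no minimum TPM it was 0. It was 0 with the replicate block, alone or after detrending, where samples share only a number (correlation of deviations -0.152). A crossed block, chosen after seeing the data, kept a count of 2. Leaving out 1 sample gave 0 to 10 genes, 0 without either +/+ sample, 5 without Chd5-/- replicate 1 and 10 without Chd5-/- replicate 2, and calls over all rows then numbered 0, 0, 1247 and 1086. In these fits the lone sample of a genotype is assumed to vary like the others.

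The count higher at an unadjusted p (4) was 3 to 8 when a sample was left out. The count lower (1) was 0 with a pseudocount of 0.1, with no minimum and with a minimum of 10 TPM, 2 after quantile normalization, after detrending and with the crossed block, 5 with the replicate block after detrending, and 1 to 4 without a sample. The share of all rows lower at that p moved too. It was 2.27% in the main fit, 2.22% with a pseudocount of 0.1, 2.11% with no minimum and 3.00% with a minimum of 10 TPM. It was 8.14% after quantile normalization, 6.27% after detrending, 2.26% with the crossed block and 3.82% with the replicate block after detrending. Whether these genes moved apart from all rows was not tested. Without a sample, a genotype has a lone sample and no share is given. The median difference of the hosts (0.46) was 0.049 with median-of-ratios scaling, 0.093 with quantile normalization, 0.23 when the 20 top rows were left out of the total, -0.0035 after detrending (also with the replicate block) and 0.23 to 0.75 without a sample. Machinery genes past an unadjusted p (10 in either direction) numbered 6 with a minimum of 10 TPM, 4 after quantile normalization and after detrending, 2 after detrending with the replicate block, and 1 to 13 without a sample. Genes in whole-number ratios (17) numbered 16 and 17 at a tolerance of 0.02 and 0.1, and 10 to 17 without a sample, fewest without Chd5-/- replicate 1, where fewer genes keep 2 values above 0.

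Of single genes, the difference changed sign for Snord88a (-0.21, -0.16, -0.036 and -1.43) and Snord15a (-0.16, -0.29, -0.057 and -0.59) under median-of-ratios scaling, quantile normalization, a total without the 20 top rows, and detrending (the same with the replicate block). It did so for Mir703 under median-of-ratios scaling (-0.40) and a total without the 20 top rows (-0.22). Leaving out a sample gave ranges across 0 for Snord88a (-0.093 to 0.47), Snora34 (-1.19 to 1.04), Snora65 (-4.84 to 0.36), Snora16a (-3.51 to 1.29), Mir703 (-0.11 to 0.14), Snora15 (-2.39 to 2.99), Snord33 (-3.12 to 2.21), Snord15a (-1.53 to 1.65), Snora70 (-2.52 to 2.17), Snora41 (-0.84 to 5.68), Mir22hg (-1.28 to 0.93) and Snora28 (-1.09 to 0.33). The cause of these changes was not tested. Among the other alternatives, 405 single-gene values kept direction and side of the threshold, 9 lost a call and 12 changed sign. TPM gives no depth, so the counting error of genes at 1 or 2 steps could not be stated.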
